A study of Mus musculus with 6 samples.

Results

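The proteasome subunits described here are the 35 rows of the expression table whose symbol begins with Psma, Psmb, Psmc or Psmd followed by a number, leaving out the interferon-induced Psmb8, Psmb9 and Psmb10. They stand among 32479 rows. The core particle accounts for 15 of them (8 Psma, 7 Psmb) and the regulatory particle for 20 (6 Psmc, 14 Psmd). Psmb11, the thymus form of a core subunit, was not analysed here. The 6 RNA sequencing libraries came from C57BL/6J mice and are labelled as primary cardiac fibroblasts, 3 from control mice and 3 from mice given carbon tetrachloride (CCl4) to model liver cirrhosis. CCl4 is a solvent that scars the liver when it is given repeatedly. The strain and the cell preparation are common to both groups, the design text gives 3 mice to each, and the sources used here give neither age, sex, CCl4 dose, route and duration, nor a vehicle for controls or the way the cells were isolated.

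The proteasome is the protease that destroys most proteins tagged with ubiquitin. Its core is a barrel of stacked rings in which the outer alpha rings, made of Psma proteins, gate the entry and the inner beta rings, made of Psmb proteins, hold the cutting sites. A regulatory particle sits on the end of the barrel. Its base contains a ring of ATPases, the Psmc proteins, that unfold the substrate, and scaffolds that catch ubiquitin, and its lid contains the enzyme that removes the ubiquitin chain. The heart relies on this machine to replace damaged proteins, and its muscle cells and its fibroblasts both make it. Psmd5, Psmd9 and Psmd10 match the name rule but are chaperones that help to assemble the base and are not part of the finished particle, so they are also given apart.

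Values are FPKM, fragments scaled to the length of the gene model and the size of the library, as the authors deposited them. FPKM are per length, so levels of different genes can be compared. Fold changes are differences of mean log2(FPKM + 1), CCl4 minus control, given with the standard error (SE), and a call needed an adjusted p under 0.05 in limma over the 10995 rows with a mean of at least 1 FPKM. All members passed that filter except Psma8, a testis form of an alpha subunit, at 0.16 to 0.32 FPKM in controls and 0.06 to 0.28 FPKM after CCl4. Of all tested rows 22.2% were called lower, 9.64% higher and 31.8% either way, with a median log2 fold change of -0.09.

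Heart muscle and mitochondrial transcripts outweighed those of fibroblasts in all libraries. Mitochondrial genome rows took 48.6% to 50.7% of the FPKM sum in control and 52.0% to 53.2% in CCl4 libraries, ranges that do not overlap. The 15 cardiomyocyte markers, led by Actc1 and Mb, summed to 15784 to 18719 FPKM in control and 21279 to 23185 in CCl4 libraries, against 483 to 788 and 650 to 659 FPKM for 13 fibroblast markers, led by Gsn and Dcn. None of these 28 genes was at 0 in all libraries. Of the cardiomyocyte markers 3 were called higher, 1 lower and 11 not called (median log2 fold change 0.17, range -3.50 to 1.78). Actc1 went from 1735 ± 477 FPKM in control to 5840 ± 261 FPKM in CCl4 libraries (SD, n = 3 each, limma adjusted p = 0.00037). Mb was not called (0.18, limma adjusted p = 0.119). Of the fibroblast markers 8 were called higher and 0 lower in limma (median 0.82, and at an unadjusted p under 0.05 also 8 and 0). Gsn and Dcn themselves were not called (-0.18 and -0.29, limma adjusted p = 0.391 and 0.274), and the fibroblast sums overlap between groups. The 5 erythroid markers, led by Hbb-bs and Hba-a1, were called higher and summed to 537 to 2268 FPKM in control and 2231 to 4092 in CCl4 libraries, ranges that overlap. The calls of Hbb-bs and Hba-a1 were lost in 8 and 6 of the 18 alternative fits (adjusted p up to 0.134 and 0.102), among them those without control replicate 2 or 3 or without CCl4 replicate 2 or 3, and Hbb-bs also without CCl4 replicate 1. Of 9 endothelial markers 2 were higher and 0 lower, of 8 tested macrophage and leukocyte markers 1 and 0, and of 8 smooth muscle and pericyte markers 3 and 0 (at an unadjusted p under 0.05 in limma, 0, 0 and 1 were lower). Fewer cells of a type and less RNA per cell cannot be told apart in such bulk libraries, and the part of these shifts in the results below was not tested.

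Every member called in limma was lower in CCl4 libraries, while the core median stayed near that of all tested rows. Of 20 regulatory members 11 were called lower and none higher, with a median log2 fold change of -0.30. Of 14 tested core members 2 were called lower and none higher, with a median of -0.08 against -0.09 over all tested rows. Of all tested rows 22.2% were called lower. Rescaled to a common sum (TPM), 16 regulatory and 8 core members were called lower. The largest fall was that of Psmd4, a ubiquitin receptor of the base, whose mean dropped by 50.1%. No member was called higher in limma. At an unadjusted p under 0.05 in limma, 2 of 34 tested members were higher and 20 lower. Of all 10995 tested rows, 1541 were higher and 3353 lower at that threshold. Groups were fully separated for 21 members that were lower in CCl4 and 3 that were higher, of 34 tested, where 34% and 14.7% of all tested rows were so separated. Calls are more frequent among well expressed rows. At a mean of at least 5 FPKM, 30.7% of rows were lower and 13.3% higher (44% either way), and of the members 2 of 14 core and 12 of 17 regulatory ones were lower and 1 regulatory one higher.

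**Figure D1:**
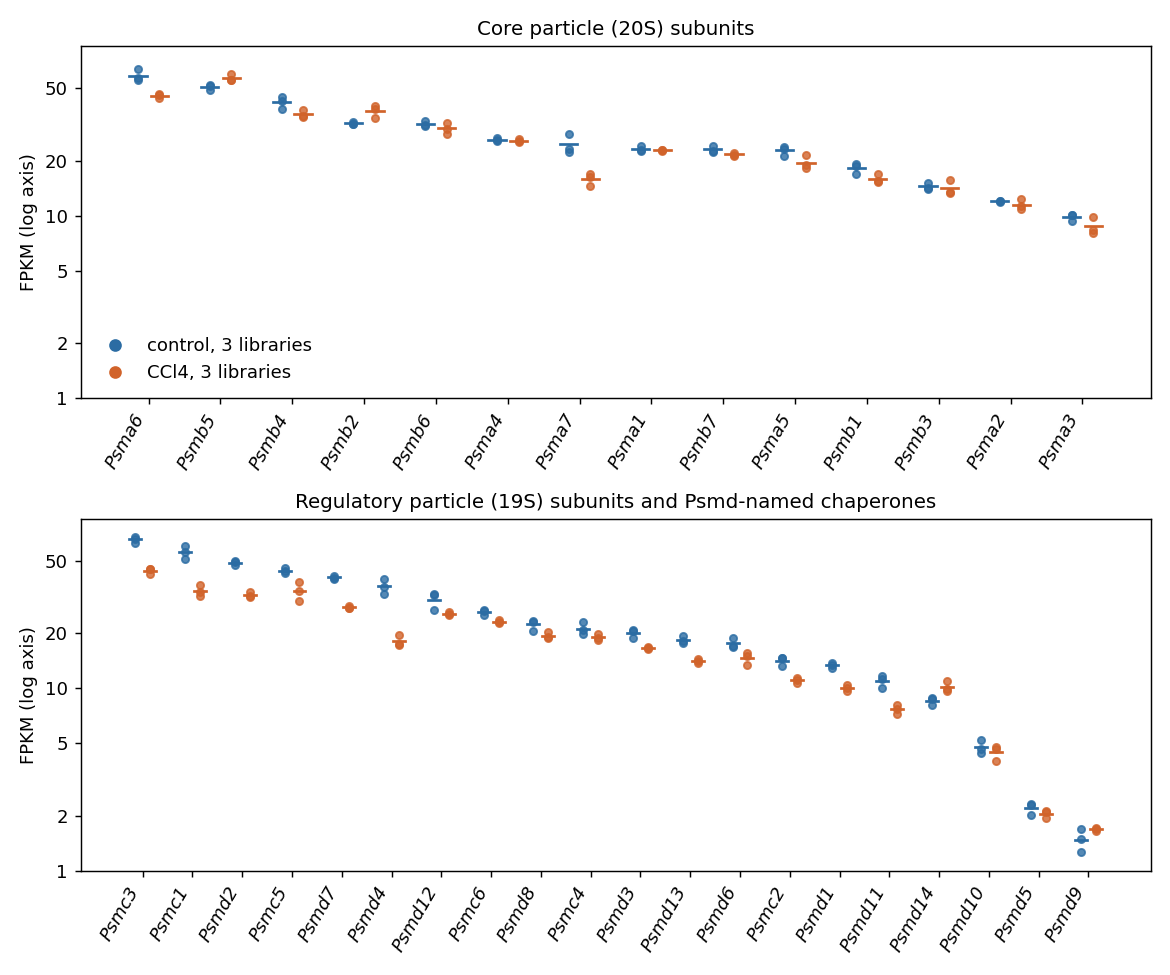
FPKM (vertical log axis) of each tested core member (upper panel) and regulatory member (lower panel) in the 3 control (blue) and 3 CCl4 (orange) libraries, ordered by control mean, with points for libraries and dashes for means. Most regulatory members sit lower in CCl4, and Psmd4 goes from 36.2 to 18.1 FPKM on average, while most core members lie close together in both groups.

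The number of calls in each direction depended on how libraries were scaled. Rescaled to a common sum (TPM), 24 members were called lower and 0 higher (38.4% and 5.61% of all rows), and with a common sum that leaves out the mitochondrial genome rows, 20 and 0 (28.2% and 7.34%). With median-ratio scaling it was 9 lower and 3 higher (14.3% and 15.6%), and with quantile scaling 8 lower and 3 higher (14.9% and 15.7%). Without the mitochondrial rows 15 regulatory and 5 core members were lower, with median-ratio scaling 8 and 1, and with quantile scaling 7 and 1. Weighting the libraries gave 15 and 5. The regulatory median was below 0 under all 5 scalings, from -0.46 to -0.18, and was lower than the core median in each. The core median was -0.23 as TPM and -0.16 without the mitochondrial rows, but turned to 0.027 with median-ratio and 0.048 with quantile scaling. The median of all tested rows was -0.23, -0.17, -0.00277 and -0.00568 under these 4 scalings in the same order.

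**Figure D2:**
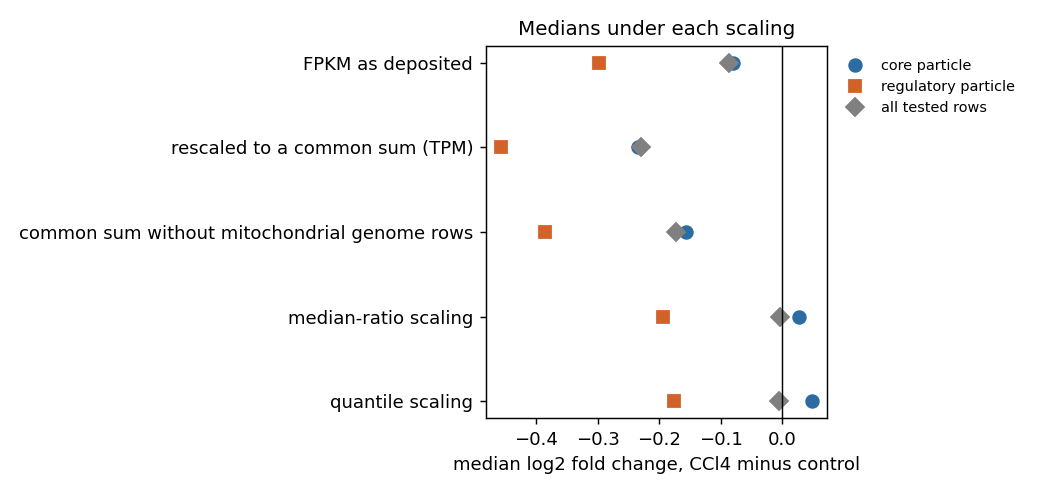
Median log2 fold change, CCl4 minus control (horizontal axis), over the 14 tested core members (circles), the 20 regulatory members (squares) and all tested rows (diamonds) under 5 ways of scaling the libraries. The regulatory median is the lowest of the 3 in each, between -0.46 and -0.18, while the core median moves with that of all rows.

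The particles were also compared within each library, where a factor common to all genes nearly cancels: the change of their difference from control to CCl4 was 0.20 to 0.21 under all 5 scalings. The mean log2(FPKM + 1) of the core members exceeded that of the regulatory members by 0.39, 0.42 and 0.43 in the control libraries and by 0.67, 0.59 and 0.59 in the CCl4 libraries. The means were 0.42 ± 0.02 and 0.61 ± 0.05 (SD, n = 3 each), and every CCl4 library lay above every control library. Leaving out the 3 chaperones, the difference was -0.01 ± 0.01 in control and 0.24 ± 0.05 in CCl4 libraries. In summed FPKM the core stood at 388.6 ± 14.5 and 361.6 ± 16.8 and the regulatory members at 503.1 ± 17.6 and 370.8 ± 8.21 (SD, n = 3 each). The ratio of the sums was 0.768, 0.774 and 0.774 in control and 1.001, 0.952 and 0.972 in CCl4 libraries. No test was made of these scores, since the members were chosen with earlier results of the data known. Relative to the control average, the core mean was at -0.03, 0.05 and -0.02 in control and -0.03, -0.16 and -0.15 in CCl4 libraries, with CCl4 replicate 1 just under control replicate 1, and the regulatory mean at -0.01, 0.04 and -0.03 and then at -0.29, -0.33 and -0.32.

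**Figure D3:**
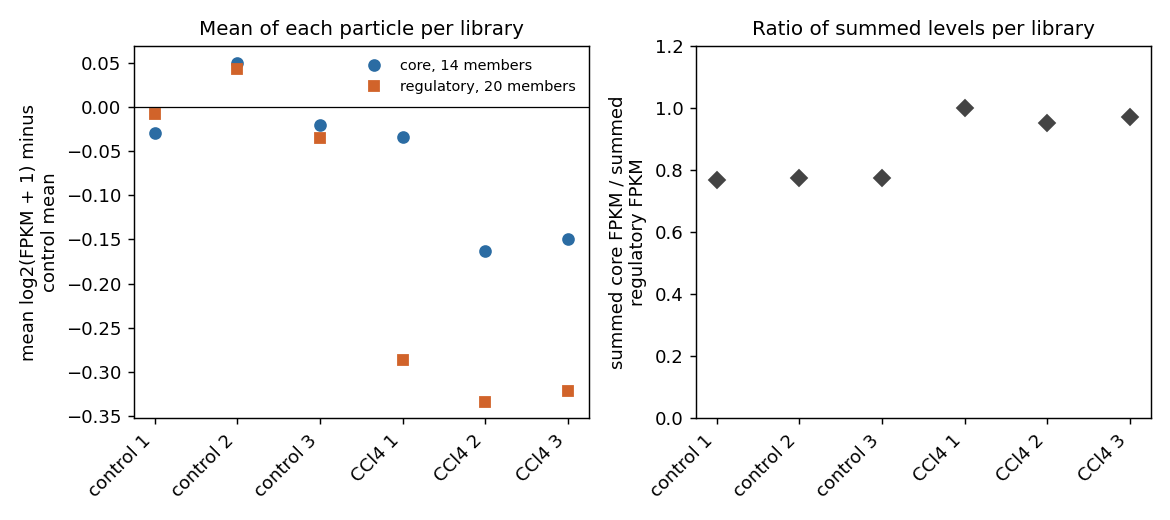
Left, the mean log2(FPKM + 1) of core (circles) and regulatory (squares) members in each library, less the control mean. Right, summed core FPKM over summed regulatory FPKM in each library, from 0.768 to 0.774 in control and from 0.952 to 1.001 in CCl4 libraries.

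The base of the regulatory particle held the member with the largest fall. All 3 of its non-ATPase subunits and 4 of its 6 ATPases were called lower, with medians of -0.57 and -0.35 over the 3 and the 6. The share of all tested rows called lower was 22.2%, and 30.7% at a mean of at least 5 FPKM. Psmd4 was at 32.9, 39.8 and 36.0 FPKM in the controls, against 19.5, 17.55 and 17.2 FPKM after CCl4. Every CCl4 value was under 20 FPKM and every control value above 32, and the log2 fold change was -0.96 ± 0.09 (SE; limma adjusted p = 0.000385). Psmd4 lies on chromosome 3 at 95032694 to 95042614, minus strand, in GRCm38. Psmd2, the scaffold on which ubiquitin-like domains of shuttle proteins dock, was at 48.9, 50.1 and 47.3 FPKM in controls and at 31.8, 32.2 and 33.7 FPKM after CCl4 (-0.57 ± 0.07, limma adjusted p = 0.00107). Its partner scaffold Psmd1 was at 12.9, 13.8 and 13.35 FPKM and then at 9.62, 10.02 and 10.4 FPKM (-0.38 ± 0.07, limma adjusted p = 0.00602). Both scaffolds were thus lower in each CCl4 library than in any control library.

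Among the ATPases, Psmc1 and Psmc3 moved most. Psmc1, on chromosome 12 at 100110154 to 100123405, was at 50.8, 60.5 and 55.7 FPKM in controls and at 36.8, 33.8 and 31.9 FPKM after CCl4 (-0.69 ± 0.09, limma adjusted p = 0.00148). Psmc3, the most abundant member in control libraries, was at 62.9, 67.2 and 66.1 FPKM and then at 44.9, 44.9 and 42.3 FPKM (-0.56 ± 0.07, limma adjusted p = 0.00125). Both drops exceed the spread of either group. Psmc2 went from 14.2 ± 0.780 to 11.1 ± 0.302 FPKM (SD, n = 3 each; -0.33, limma adjusted p = 0.0119), a call lost with median-ratio (adjusted p = 0.0651) and quantile scaling (0.0661). Psmc5 was at 45.4, 44.1 and 42.8 FPKM in controls and at 38.45, 30.2 and 34.1 FPKM after CCl4 (-0.36 ± 0.10, limma adjusted p = 0.0234), the widest spread of any ATPase in CCl4. Its call was lost under both of those scalings, without a filter on low rows, and without control replicate 2, CCl4 replicate 2 or CCl4 replicate 3 (adjusted p 0.0579 to 0.125 in these 6 fits). Psmc4 and Psmc6 did not pass (-0.14 and -0.18, limma adjusted p = 0.201 and 0.0813). Their CCl4 values were all below their control values, as for 34% of all tested rows. For Psmc4 the margin was small, with 19.88 FPKM in CCl4 replicate 1 and 19.9 FPKM in control replicate 3. As TPM Psmc4 and Psmc6 were called lower (adjusted p = 0.0235 and 0.00939). Psmc6 was also called lower without mitochondrial rows (0.0354) and with library weights (0.0483).

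In the lid 4 of 8 subunits were called lower, against 22.2% of all tested rows, and the others were not called. Psmd7, which pairs with the deubiquitinase Psmd14, was at 41.45, 40.4 and 39.9 FPKM in controls and at 27.5, 28.2 and 27.7 FPKM after CCl4 (-0.53 ± 0.07, limma adjusted p = 0.0012). Psmd11, which braces the lid against the core, was at 11.3, 11.6 and 10.1 FPKM and then at 7.28, 7.74 and 8.11 FPKM (-0.46 ± 0.08, limma adjusted p = 0.00491). Psmd13, a structural lid subunit, went from 18.4 ± 0.845 to 14.2 ± 0.350 FPKM (-0.36, limma adjusted p = 0.00783; 0.0589 with quantile scaling). Psmd3, another structural lid subunit, went from 20.2 ± 1.05 to 16.6 ± 0.237 FPKM (-0.27, limma adjusted p = 0.0251). That call was lost in 7 of 18 alternative fits, among them the 2 scalings named above and those without control replicate 2 or without any 1 of the CCl4 replicates. Psmd6, Psmd8 and Psmd12, likewise structural subunits, had log2 fold changes of -0.25, -0.20 and -0.24 and did not pass (limma adjusted p = 0.0528, 0.0869 and 0.0755). They were called lower in 5, 4 and 4 of the 18 alternative fits, as TPM (adjusted p = 0.00821, 0.0102 and 0.0153), without mitochondrial rows (0.0216, 0.0394 and 0.0357) and with library weights (0.0194, 0.0416 and 0.0497) in each case. The others were a mean of at least 5 FPKM and robust variances for Psmd6 (0.0398 and 0.0498), and the fits without control replicate 1 for Psmd8 (0.0414) and without control replicate 3 for Psmd12 (0.0212).

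Psmd14, the lid enzyme that cuts the ubiquitin chain off the substrate, had the opposite sign from the other lid subunits. It was at 8.15, 8.72 and 8.83 FPKM in controls and at 11.02, 9.64 and 9.94 FPKM after CCl4. Each CCl4 value was thus above each control value, with a log2 fold change of 0.23 ± 0.08 that did not pass (limma adjusted p = 0.0583). It passed at a mean of at least 5 FPKM (adjusted p = 0.0423) and with median-ratio and quantile scaling (0.0276 and 0.0283). Psmd14 was the lowest of the 17 regulatory subunits in every control library, and Psmd11 was the lowest in every CCl4 library. The 3 chaperones were the least abundant regulatory members, at 1.27 to 5.19 FPKM over all libraries, with overlapping groups. Psmd5, Psmd9 and Psmd10 had log2 fold changes of -0.07, 0.12 and -0.08 (limma adjusted p = 0.515, 0.322 and 0.53).

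**Figure D4:**
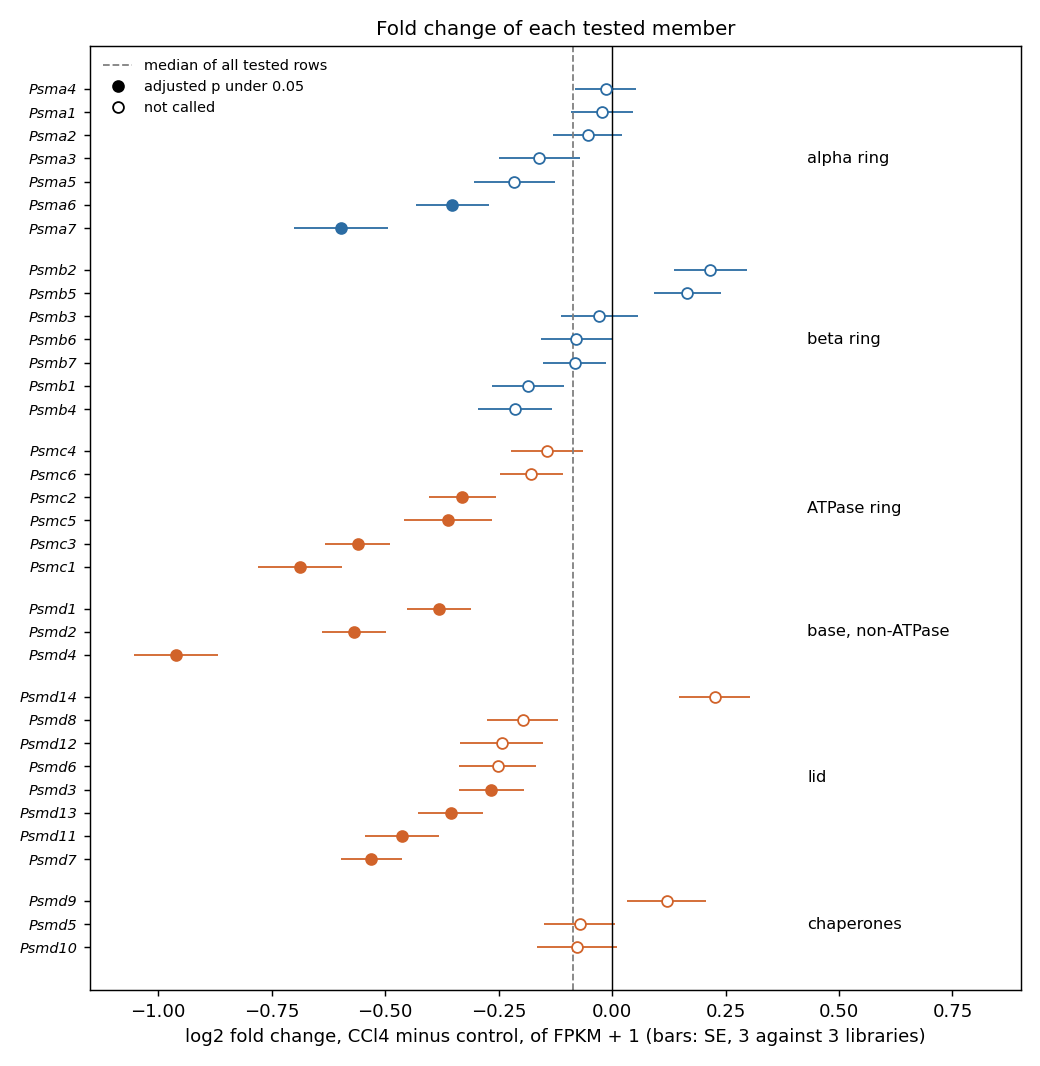
Log2 fold change of FPKM + 1, CCl4 minus control (horizontal axis, bars for SE), of the 34 tested members grouped by their place in the particle, core in blue and regulatory in orange, filled where the adjusted p was under 0.05. The base and ATPase rings reach furthest to the left, down to -0.96 for Psmd4, and the beta ring has no filled point.

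In the core, 2 of 7 tested alpha subunits were called lower in limma, against 22.2% of all tested rows. None of the 7 beta subunits was called, against 31.8% of all tested rows called either way. At an unadjusted p under 0.05 in limma, 1 beta subunit was higher and 2 lower. Psma7, on chromosome 2 at 180036374 to 180042433, was at 23.2, 28.15 and 22.4 FPKM in controls and at 16.8, 16.25 and 14.5 FPKM after CCl4 (-0.60 ± 0.10, limma adjusted p = 0.00456). Psma6, the most abundant core member in control libraries, was at 55.1, 63.35 and 56.4 FPKM and then at 46.0, 44.0 and 46.1 FPKM (-0.35 ± 0.08, limma adjusted p = 0.0127), a call lost with median-ratio (adjusted p = 0.0842) and quantile scaling (0.0561). Both alpha subunits were lower in each CCl4 library than in any control library. The other tested alpha subunits lay between -0.22 for Psma5 and -0.01 for Psma4, with Psma1 at -0.02, Psma2 at -0.05 and Psma3 at -0.16, and their groups overlapped. Psma3 and Psma5 were called lower as TPM (adjusted p = 0.0243 and 0.0112), and Psma5 also without mitochondrial rows (0.0338) and with library weights (0.0232).

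Of the 3 beta subunits that carry the cutting sites, none passed the test. Psmb5, which cuts after hydrophobic residues, was at 51.1, 51.7 and 48.6 FPKM in controls and at 59.98, 55.3 and 55.05 FPKM after CCl4 (0.17 ± 0.07, limma adjusted p = 0.119), higher in each CCl4 library. Psmb6, which cuts after acidic residues, and Psmb7, which cuts after basic ones, had log2 fold changes of -0.08 and -0.08 (limma adjusted p = 0.472 and 0.388). Of the subunits without a cutting site, Psmb2 was at 32.6, 31.9 and 31.6 FPKM in controls and at 40.1, 34.1 and 38.2 FPKM after CCl4 (0.22 ± 0.08, limma adjusted p = 0.0735). Psmb1, Psmb3 and Psmb4 had -0.19, -0.03 and -0.21 (limma adjusted p = 0.108, 0.823 and 0.0796). Psmb2 and Psmb5 passed with median-ratio (adjusted p = 0.0337 and 0.0463) and quantile scaling (0.0116 and 0.0132), where they and Psmd14 were the 3 members called higher. As TPM, Psmb6, Psmb7, Psmb1 and Psmb4 were called lower (adjusted p = 0.0481, 0.0457, 0.0111 and 0.00793). Psmb1 and Psmb4 were called lower without mitochondrial rows (0.0392 and 0.0271) and with library weights (0.033 and 0.0231) too, and Psmb4 without control replicate 1 (0.0361).

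Regulatory members with a higher level in control libraries tended to have a more negative fold change. Across the 20 regulatory members Spearman's rho between the control mean and the log2 fold change was -0.70, and across the 14 core members 0.07. It was -0.20 over all tested rows. These are descriptions over genes of the same 6 libraries, the control level enters both measures, and the pseudocount draws the fold changes of the scarce chaperones toward 0. With the mean over all 6 libraries in place of the control mean it was -0.66 and 0.20. Over the 17 regulatory subunits without the chaperones, the highest level was 7.49 to 7.72 times the lowest in control libraries and 5.21 to 6.16 times in CCl4 libraries. For the core that ratio was 5.57 to 6.25 and 6.11 to 6.85, ranges that overlap.

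Pseudogenes close to some members can share their reads. Gm13835, a processed pseudogene that holds 16.2% of the 31-base words of Psma3 transcripts, was listed at 28.5 FPKM in controls and 24.97 FPKM after CCl4 on average, above Psma3 itself at 9.86 and 8.74 FPKM, so the level of Psma3 is uncertain. Gm3375 holds 59.8% of the words of Psmb5 and was listed at 1.39 FPKM in both groups, and Gm6542, close to Psma4, at 2.37 and 2.00 FPKM. Copies of Psmc1 and Psmd2 were under 1 FPKM, and Psma5 and Psmb3 share 46.2% and 16.8% of their words with copies not analysed here. Exons of Psmb7, Psmb5, Psmd13 and Psmd9 are overlapped by exons of other genes over 11.8%, 12.1%, 10.1% and 25.5% of their length.

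Promoters were compared because 11 of the 20 regulatory members were called lower. RefSeq windows on GRCm38.p6 were found for 28 of the 35 members (30 windows, since Psmc2 and Psma6 have 2 starts), and the 250 bases before each start were searched on both strands. The antioxidant response element core TGACNNNGC, the binding site type of NFE2L1 and NFE2L2, stood in 5 of the 30 windows (16.7%) against 10.2% of 32851 windows of all genes. These were in Psmb5, Psmb6, Psmc6, Psmd9 and Psmd12, none of them called. No window was found for Psma8, Psmb1, Psmb2, Psmb7, Psmc3, Psmd3 and Psmd7, so the called Psmc3, Psmd3 and Psmd7 were not searched. The CCAAT box stood in 11 windows (36.7%, against 33.8% of all), 6 of 12 core and 5 of 18 regulatory ones. The palindromic element of nuclear respiratory factor 1 stood in 1 (Psma2), against 0.782% of all windows. A match is a description of letters and not of binding. The windows below belong to the 2 largest falls of the regulatory particle, the largest fall of the core and the cutting subunit whose CCl4 values were higher, with matches in capitals (CCAAT or its reverse ATTGG in the first 3, TGACNNNGC in the last), 5′ to 3′ on the gene's strand, cut off where the GENCODE gene begins if the window reached it.
Psmd4, minus strand, chr3:95042615-95042864: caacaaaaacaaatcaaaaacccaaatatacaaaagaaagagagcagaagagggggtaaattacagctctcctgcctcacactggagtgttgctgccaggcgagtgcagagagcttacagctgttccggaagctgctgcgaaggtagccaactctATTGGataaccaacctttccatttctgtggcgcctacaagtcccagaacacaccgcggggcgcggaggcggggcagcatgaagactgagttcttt
Psmc1, plus strand, chr12:100109952-100110153: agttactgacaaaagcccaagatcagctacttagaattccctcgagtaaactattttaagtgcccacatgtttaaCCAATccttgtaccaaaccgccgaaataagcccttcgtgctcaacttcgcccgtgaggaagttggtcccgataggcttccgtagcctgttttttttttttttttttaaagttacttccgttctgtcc
Psma7, minus strand, chr2:180042465-180042714: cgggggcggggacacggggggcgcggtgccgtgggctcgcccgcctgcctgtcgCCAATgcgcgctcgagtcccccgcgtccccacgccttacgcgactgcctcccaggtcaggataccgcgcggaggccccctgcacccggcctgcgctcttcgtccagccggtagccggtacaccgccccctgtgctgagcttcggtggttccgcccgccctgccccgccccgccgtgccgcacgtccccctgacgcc
Psmb5, minus strand, chr14:54618023-54618245: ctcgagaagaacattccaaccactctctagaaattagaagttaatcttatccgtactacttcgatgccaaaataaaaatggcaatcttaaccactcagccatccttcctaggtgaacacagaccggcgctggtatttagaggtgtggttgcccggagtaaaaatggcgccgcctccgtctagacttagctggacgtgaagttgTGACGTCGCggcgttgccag

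The interferon-induced beta subunits, which replace the 3 cutting subunits in the immunoproteasome, were not called. Psmb8 was at 3.93 ± 0.508 and 3.87 ± 0.821 FPKM, Psmb9 at 2.24 ± 0.383 and 2.06 ± 0.435 FPKM, and Psmb10 at 15.9 ± 2.68 and 20.1 ± 1.45 FPKM (SD, n = 3 each; limma adjusted p = 0.885, 0.643 and 0.0671). Psmb10 was called higher under median-ratio and quantile scaling, under library weights, and when control replicate 1 was left out (adjusted p 0.00957 to 0.0323 in these 4 fits). Of the other caps that can sit on the core, Psme1, an interferon-induced activator, was called higher (28.6 ± 4.63 to 36.4 ± 1.16 FPKM, limma adjusted p = 0.0449). Its partner Psme2 was at 12.6 ± 3.77 and 12.1 ± 1.35 FPKM (limma adjusted p = 0.942). Psme4, a large single-chain activator, was called lower (35.8 ± 6.43 to 25.5 ± 2.74 FPKM, limma adjusted p = 0.0312), as was the core inhibitor Psmf1 (3.08 ± 0.132 to 2.40 ± 0.106 FPKM, limma adjusted p = 0.0266). The calls of Psme1, Psme4 and Psmf1 were lost in 9 of 18, 6 of 18 and 9 of 17 alternative fits (adjusted p up to 0.223, 0.0992 and 0.088).

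Adrm1 and Sem1, regulatory subunits without a Psm name, were not called (log2 fold changes -0.24 and 0.00297, limma adjusted p = 0.0527 and 0.981), but Adrm1 was called lower in 5 alternative fits (adjusted p 0.00908 to 0.0383). Of 5 chaperones of core assembly 2 were lower, against 22.2% of all tested rows. They were Pomp, which closes the maturing core (-0.29 ± 0.08, limma adjusted p = 0.025), and Psmg2 (-0.24 ± 0.08, limma adjusted p = 0.0486). Their calls were lost in 7 and 12 of the 18 alternative fits (adjusted p up to 0.126 and 0.263). Among 13 enzymes and shuttle proteins that bind the proteasome 7 fell and 0 rose in limma (unadjusted, 9 and 0). The shares of all tested rows were 22.2% and 9.64%, and the median of these 13 was -0.36. Of these, the deubiquitinase Uchl5, which docks on Adrm1, fell by 0.49 ± 0.09, the ubiquitin shuttles Ubqln2 and Rad23b by 0.48 ± 0.07 and 0.41 ± 0.08, and the proteasome adaptor Ecpas by 0.47 ± 0.09 (limma adjusted p = 0.00497, 0.00228, 0.00815 and 0.00677). Zfand5 and Txnl1, which bind the regulatory particle, fell by 0.38 and 0.37. Usp14, a deubiquitinase held on Psmd2, had levels of 6.86 ± 0.142 and 6.09 ± 0.0737 FPKM, a difference that was not called (limma adjusted p = 0.122; 0.0153 as TPM).

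The transcription factor NFE2L1 is known to raise proteasome subunit genes when proteasome activity is short, after Vcp draws it out of the endoplasmic reticulum membrane, Ngly1 strips its sugars and the protease Ddi2 cuts it. The list made for that pathway also held Nfe2l2 and genes of endoplasmic reticulum degradation, and Vcp was counted in another list. Of its 7 tested genes 6 fell and 0 rose in limma (unadjusted, also 6 and 0), with a median of -0.41. The shares of all tested rows called lower and higher were 22.2% and 9.64%. Nfe2l1 went from 77.0 ± 5.44 to 61.5 ± 1.53 FPKM (SD, n = 3 each; -0.32, limma adjusted p = 0.0176), a call lost with median-ratio (adjusted p = 0.0669) and quantile scaling (0.0788), with the replicate number as a block (0.0523) and without CCl4 replicate 3 (0.0603). Its relative Nfe2l2 went from 23.5 ± 2.92 to 15.6 ± 1.25 FPKM (limma adjusted p = 0.0062). Ddi2 and Ngly1 fell by 0.57 ± 0.08 and 0.41 ± 0.07 (SE; limma adjusted p = 0.00145 and 0.00378). Herpud1, a membrane protein of the same degradation route that endoplasmic reticulum stress induces, fell from 146.3 ± 45.6 to 62.4 ± 1.23 FPKM, and Syvn1, its ubiquitin ligase, from 4.74 ± 0.261 to 3.54 ± 0.278 FPKM, a call lost without control replicate 2 or CCl4 replicate 3 (adjusted p = 0.0539 and 0.06).

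Vcp, the ATPase that pulls ubiquitin-tagged proteins out of complexes, was listed with its partners. They were lower in 7 of 11 cases and higher in 0 in limma (unadjusted, 8 and 0), with a median of -0.27. The shares of all tested rows were 22.2% and 9.64%. Vcp went from 62.4 ± 2.02 to 50.03 ± 2.58 FPKM (SD, n = 3 each; limma adjusted p = 0.0151), a call lost in 5 of the 18 alternative fits, those without control replicate 2, CCl4 replicate 2 or CCl4 replicate 3 among them (adjusted p up to 0.112). Its cofactors Faf1 and Ubxn6 fell by 0.65 ± 0.11 and 0.57 ± 0.07 (SE; limma adjusted p = 0.0036 and 0.00111), and Nploc4, Plaa and the ligase Ube4b were also called lower, calls lost in 4, 9 and 1 of the 18 alternative fits (adjusted p up to 0.0559, 0.0983 and 0.0536, Ube4b without CCl4 replicate 3). Of 5 tested ubiquitin and ubiquitin-activating genes 2 were called lower, against 22.2% of all tested rows. The polyubiquitin gene Ubb was at 250.8 ± 12.8 and 141.4 ± 15.3 FPKM (-0.83 ± 0.10, limma adjusted p = 0.00081), and Rps27a, which encodes ubiquitin fused to a ribosomal protein, fell by 0.34 ± 0.09, a call lost in 8 of the 18 alternative fits (adjusted p up to 0.157).

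**Figure D5:**
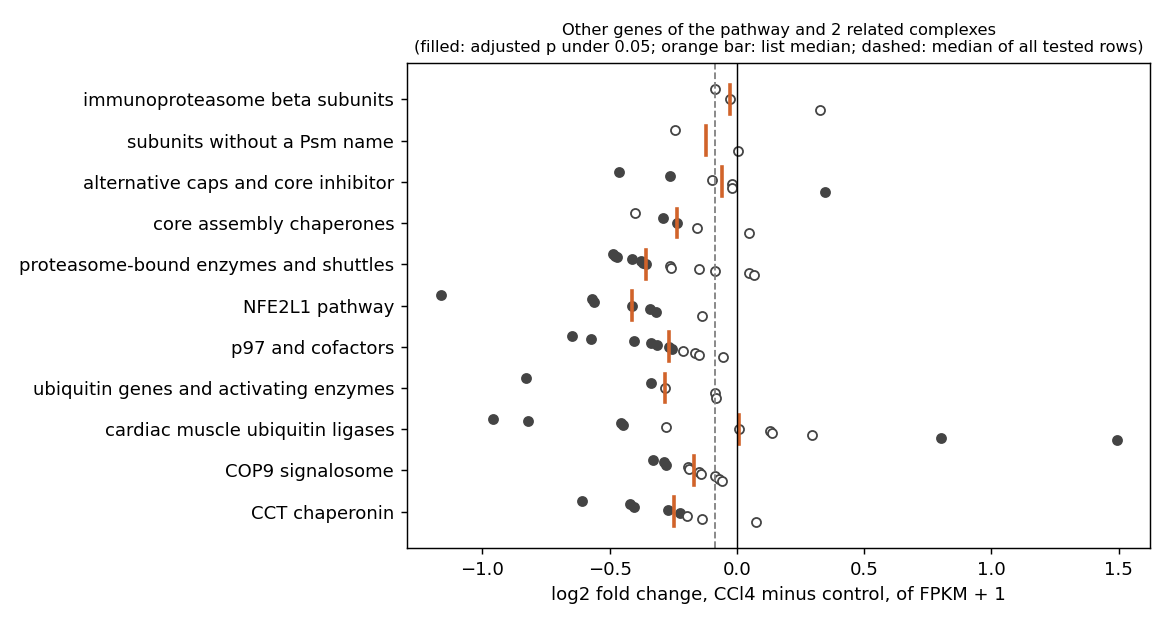
Log2 fold change of FPKM + 1, CCl4 minus control (horizontal axis), of each tested gene of 11 other lists, filled where the adjusted p was under 0.05, with an orange bar at the list's median and a dashed line at the median of all tested rows. The lists of the NFE2L1 pathway and of proteasome-bound enzymes have medians of -0.41 and -0.36, and the muscle ubiquitin ligases spread to both sides.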

How the data were processed

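The data are 3 control and 3 CCl4 RNA sequencing libraries. The authors deposited FPKM values, and the submitters' processing notes name StringTie 2.1.6 and the build GRCm38. For the aligner, annotation release, filters and strand setting: not given in the sources used here. RNA was captured on oligo(dT) beads, per the labels' protocols. Each library column was matched to its sample by name. The FPKM sums ran from 519609 to 602763, and 21054 to 22395 rows per library were above 0. FPKM keep no fragment counts. Low values of single-exon genes gave a rough estimate of 31200000 to 40800000 fragments per library, but 29.1% to 34.2% of them lay within 10% of a whole fragment where 20% would by even spread, so no count test was run.

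Values were taken as log2(FPKM + 1), with rows of a mean of at least 1 FPKM kept (10995). CCl4 was compared with control in limma 3.58.1 under R 4.3.3 (mean-variance trend, two-sided, without covariates), with Benjamini-Hochberg adjustment of the p over those 10995 rows. The fit was tested on simulated data in which 200 rows changed by 1 in log2. That is more than any member changed in the main fit, so the check does not cover smaller changes. Medians over members carry no test. Alternatives were other pseudocounts (0.1 and 0.01), filters, scalings, variance settings, a replicate block, weights per library, and leaving out each library. The members and gene lists were chosen with earlier results of these data known. Every member is named, and of each other list the called genes with the smallest p (at most 6) and 16 genes fixed by name, of which 1 is not reported here. Positions and shared words come from GENCODE M21 (GRCm38), promoters from RefSeq on GRCm38.p6. The table pairs values with symbols only, so a position is that of the annotated gene of that symbol. Of the list genes, Paaf1 was not analysed here.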

Additional observations from a re-analysis of the deposited data

How the results depend on the processing

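Of 13 members called lower, 8 (Psma7, Psmc1, Psmc3, Psmd1, Psmd2, Psmd4, Psmd7 and Psmd11) remained called in all 18 alternatives. No member called lower turned higher. Rows called over the whole table numbered 3501, 2165 at a mean of at least 5 FPKM, and 2188 to 3258 when 1 library was left out (2188 without CCl4 replicate 3). Members called lower numbered 13, 24 as TPM, 20 with a common sum without mitochondrial rows, 20 with library weights, 8 with quantile scaling, and 11 to 15 with 1 library left out. Members called higher numbered 0, 1 at a mean of at least 5 FPKM (Psmd14), 3 with quantile and 3 with median-ratio scaling, and 0 to 0 with 1 library left out. The core median of -0.08 became -0.23 as TPM and -0.16 without mitochondrial rows, and turned to 0.048 with quantile and 0.027 with median-ratio scaling; with 1 library left out it was -0.12 to -0.05. The regulatory median of -0.30 became -0.36 at a mean of at least 5 FPKM, where the 3 chaperones drop out, -0.46 as TPM, -0.39 without mitochondrial rows, -0.18 with quantile and -0.19 with median-ratio scaling, and -0.35 to -0.27 with 1 library left out. The core minus regulatory difference rose by 0.20 from control to CCl4, by 0.25 at a mean of at least 5 FPKM, and by 0.17 to 0.21 with 1 library left out. Where 22.2% and 9.64% of all tested rows were called lower and higher, 38 and 3 of 81 genes of the other lists were. It was 21 and 5 with quantile, 22 and 5 with median-ratio scaling, 5 higher with library weights, and 22 to 34 lower and 2 to 6 higher with 1 library left out (23 lower without control replicate 2, 22 without CCl4 replicate 3, 6 higher without control replicate 1). Beyond the shift of all rows shown for the scalings, the cause was not tested. Of 39 named genes of those lists that were called, 21 remained called wherever they were tested.

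With the replicate number as a block 12 members were lower and 0 higher, Psmd3 alone losing its call (adjusted p = 0.0736), and 27 of the 81 list genes were lower. Residuals of same-numbered libraries correlated at -0.06, 0.05 and -0.04, and those of the other pairs at -0.10 to 0.12. These values show no strong effect shared by replicate number. They cannot settle whether same-numbered samples were collected or processed together. With 3 libraries a group and depth known only as an estimate, small differences of single members could not be resolved.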

Other observations

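Muscle ubiquitin ligases, which mark sarcomere and signalling proteins for the proteasome, were split. Of 11 tested, 4 were called lower and 2 higher, against 22.2% and 9.64% of all tested rows. Their median log2 fold change was 0.00834. Fbxo32, a ligase that rises in muscle atrophy, was at 23.9 ± 1.73 FPKM in controls and 13.1 ± 0.279 after CCl4 (SD, n = 3 each; limma adjusted p = 0.000355). Its counterpart Trim63 was at 54.4 ± 9.25 and 39.0 ± 0.476 FPKM (limma adjusted p = 0.0228), a call lost in 7 of the 18 alternatives (adjusted p up to 0.0848). Trim54, a sarcomere-bound relative of Trim63, fell from 191.7 ± 27.4 to 97.7 ± 6.33 FPKM and Cblb, a ligase of signalling receptors, from 1.87 ± 0.155 to 1.11 ± 0.0586 FPKM. Fbxl22, a ligase subunit of the cardiac Z-disc, rose from 4.32 ± 0.716 to 13.9 ± 1.15 FPKM, and Asb2, which marks filamins for destruction, from 68.3 ± 4.65 to 119.9 ± 7.53 FPKM (limma adjusted p = 0.000148 and 0.00054).

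A pair of other multi-subunit complexes was set beside the proteasome. The COP9 signalosome is built on the same plan as the lid. Of its 10 tested genes 3 fell and 0 rose in limma (unadjusted, 4 and 0), against 22.2% and 9.64% of all tested rows. All 10 had a negative log2 fold change, as had 6881 of all 10995 tested rows, and the median of the 10 was -0.17. Cops5, its counterpart of Psmd14, was at 13.2 ± 0.749 and 10.3 ± 0.507 FPKM (limma adjusted p = 0.0143), the opposite sign from Psmd14. The calls of Cops5, Cops6 and Cops2 were lost with median-ratio scaling (adjusted p = 0.0872, 0.109 and 0.171). They were kept in only 14, 13 and 9 of the 18 alternatives (adjusted p up to 0.106, 0.146 and 0.2). Of the 8 subunits of the CCT chaperonin, which folds actin and tubulin, 5 fell and 0 rose in limma (unadjusted, 6 and 0). These counts too stand against 22.2% and 9.64% of all tested rows, and the median of the 8 was -0.25. The calls of Tcp1 and Cct8 were lost in 6 and 9 of the 18 alternatives (adjusted p up to 0.127 and 0.353), and those of Cct4, Cct2 and Cct7 in none. Cct4 went from 28.1 ± 1.75 to 18.1 ± 0.866 FPKM and Cct2 from 38.3 ± 0.424 to 28.4 ± 1.28 FPKM (limma adjusted p = 0.00133 and 0.00402).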
